A study of Homo sapiens with 15 samples.

Results

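The MYC and PVT1 neighbourhood is a window of 4 Mb on chromosome 8 (hg38, chr8:126700000-130700000) that holds the MYC gene, the PVT1 gene and the gene-poor DNA on both sides of them. Peaks of open chromatin from all 15 libraries were merged into regions wherever they overlapped by at least 1 bp, and a region belonged to the neighbourhood if its midpoint lay in the window. By this rule 426 of 222814 regions were members. A library is said to call a region when at least 1 of its peaks touches it.

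MYC encodes a transcription factor that pairs with MAX and drives cell growth and division. Its gene stands in a wide desert at 8q24, where distant enhancers contact its promoter, and parts of that desert are transcribed into long non-coding RNAs such as CCAT1, CCAT2, CASC8, CASC19, CASC21 and PVT1. In many epithelial cancers MYC is a target of WNT signalling, through beta-catenin and its TCF partners bound at such enhancers.

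The assay was ATAC-seq, which uses a transposase to cut and tag accessible DNA, and the cells were HPAF-II, an established human pancreatic adenocarcinoma cell line. Cells received 1 µM Lgk974, an inhibitor of porcupine, the enzyme that attaches the lipid WNT proteins need to be secreted, or the solvent DMSO. The 4 groups were DMSO for 24 h (4 libraries), Lgk974 for 24 h (4), DMSO for 48 h (4) and Lgk974 for 48 h (3), all of the same line and with no genetic change stated. Whether the replicates were separate cultures is not stated in the labels, and p-values speak only of the spread among these libraries.

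The 9 ductal epithelial marker genes reported here, among them KRT8, KRT18, KRT19 and EPCAM, were marked by peaks no farther than 1 kb from a gene end in all 15 libraries, while of 4 acinar genes PRSS1 and CELA3A were marked in 0 and CPA1 and PTF1A in 2 each. Of 6 fibroblast genes, DCN, FAP and THY1 were marked in 0, PDGFRB in 10, COL1A2 in 11 and COL1A1 in 15. Of the leukocyte genes reported here, PTPRC was marked in 2, ITGAM in 13, and CD3E and CD14 in 15. The lists held from 53610 to 127886 peaks. The shortest lists were those of replicate 3 of Lgk974 at 24 h and at 48 h, and the longest that of DMSO 24 h replicate 3. The mean overlap of these 3 libraries, in that order, with the others inside the window (shared regions over all regions called in either) was 0.514, 0.462 and 0.428, against 0.583 to 0.678 for the other libraries. They are called the 3 outlying libraries here, and regions named for a treatment difference in calling, or past adjustment in the order of regions, are given with and without them. Read counts were not analysed here. Sequencing depth is therefore unknown, and a region that was not called may be open below the threshold of that library.

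The neighbourhood was more densely covered than the rest of chromosome 8, at 106 regions per Mb against 84.0. Regions called in all 15 libraries numbered 69 (16.2% of the members), close to the 15.9% among all regions, and stood at 17.2 per Mb against 10.6 on the rest of the chromosome. Single-library regions made up 138 members (32.4%, against 39.5% of all regions), and 50 of these 138 came from DMSO 24 h replicate 3 alone. The window holds 52 annotated genes, most of them non-coding. Of the members, 32 lay within 1 kb of a gene end, while 219 lay inside a gene farther from its ends and 175 between genes. Of the 32 gene-end members 9 were called in all 15 libraries, of the 219 inside genes 36, and of the 175 between genes 24. At the borders of the window, the nearest region outside the lower edge (817 bp out) was called in 15 libraries and the nearest inside (17 bp in) in 10, and at the upper edge the nearest inside (3640 bp in) and outside (11152 bp out) were each called in 1.

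**Figure D1:**
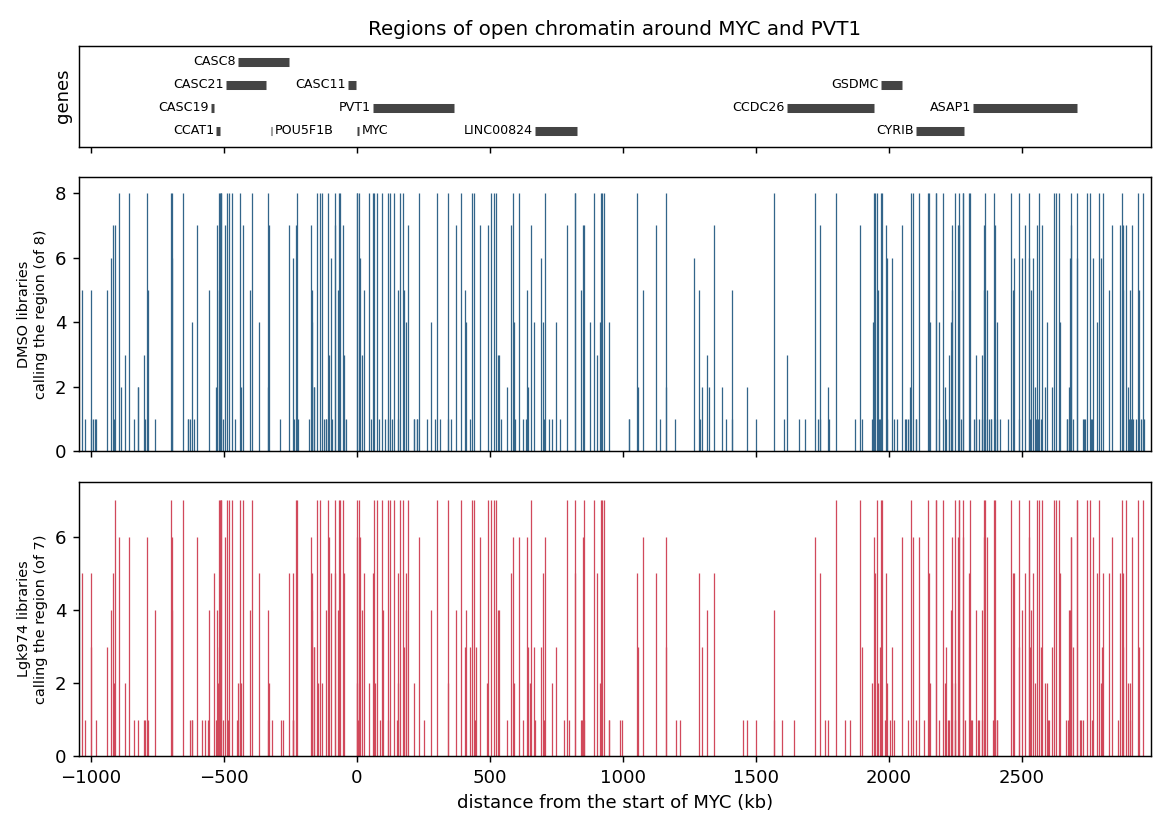
Each vertical line is one region of the neighbourhood, placed by its distance from the start of MYC in kb, with its height the number of DMSO libraries (middle, of 8) or Lgk974 libraries (bottom, of 7) that called it; the top panel shows selected genes. Lines crowd at the CCAT1 and CASC21 end, over PVT1, and over CYRIB and ASAP1, and thin out in the desert before GSDMC.

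**Figure D2:**
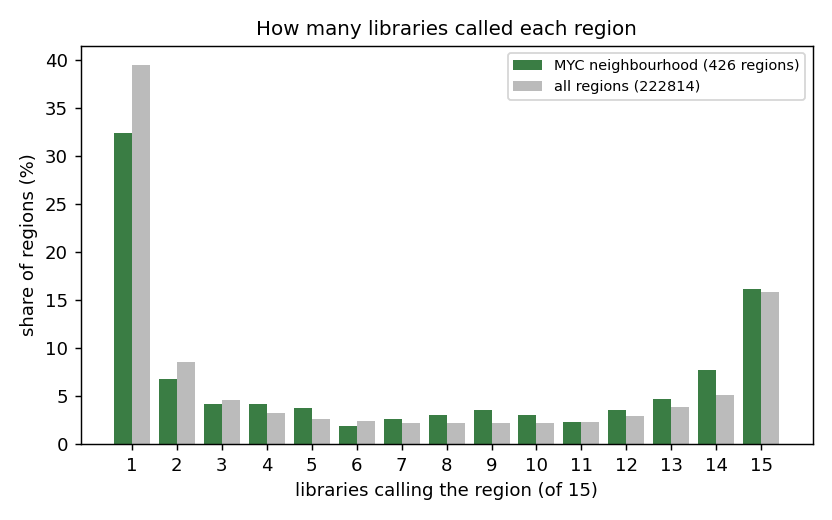
Share of regions (%) by the number of libraries that called them, from 1 to 15, for the neighbourhood (green) and for all regions (grey). Regions called in 1 library made up 32.4% of the neighbourhood and 39.5% of all regions, and those called in all 15 made up 16.2% and 15.9%.

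Open regions were spread unevenly along the window. The PVT1 gene (chr8:127794524-128101256), which gives a long non-coding RNA and hosts several microRNAs, had the densest set of regions called in every library, with 10 among its 37 members (32.6 per Mb). The segment with GSDMC, CYRIB and ASAP1, the part of the window with most protein-coding sequence, had 27 among 154 (27.1 per Mb). From CASC21 to 50 kb before MYC there were 11 among 54 (24.4 per Mb), in the short segment around MYC and CASC11 2 among 13, and from the lower edge to CCAT1 6 among 51 (11.2 per Mb). The desert after PVT1, which includes CCDC26, was the sparsest, with 13 among 117 (8.10 per Mb) over 1604 kb. It also held the longest stretch with no region called in all 15 libraries, 869 kb from chr8:128666579 to chr8:129535673.

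When regions called in all 15 libraries were joined across gaps of at most 10 kb, the 69 formed 51 groups, 36 of them a lone region. The largest group lay at CCAT1, with 4 regions over 10.8 kb at −515 kb from the start of MYC, and the next, with 3 regions over 13.3 kb, lay at +925 kb where the table lists no gene. The MYC gene itself formed a group of 2 regions.

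At MYC the start region (chr8:127735049-127736502, 1454 bp, covering the gene start) and the region at its other end, the 3′ end (chr8:127741610-127743507, 1898 bp), were called in all 15 libraries, and both were among the 5 widest of the 69. The region beside the end of CASC11, a non-coding gene next to MYC, was called in 14. The region over the PVT1 start (chr8:127793847-127795990) was the widest member at 2144 bp. It was called by all 8 DMSO libraries and by 5 of the 7 with Lgk974, which left it outside the range tested for differences. The Lgk974 libraries that did not call it were replicate 3 at 24 h and replicate 3 at 48 h, which had the shortest lists. At CCAT1 1 of 3 gene-end regions was called in all 15. No peak lay within 1 kb of an end of PCAT1, of POU5F1B, the retrogene copy of the pluripotency factor OCT4, or of CCDC26. A region at one end of CYRIB, a regulator of actin, and one at an end of ASAP1, an Arf GTPase-activating protein, were called in all 15, and that at an end of GSDMC, a gasdermin, in 13. Of the 52 genes 7 (13.5%) had a gene end called in all 15 libraries, against 27.3% of 59098 genes in the table. Of these 7, LOC105375751 begins at chr8:126557876, outside the window, and no member called in all 15 overlapped it. Most of the 52 are non-coding, and the shares were not compared by kind of gene.

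Neither MYC region was among the strongest of the window. Strength was read from the authors' −log10 q, a measure of statistical confidence that a peak stands above background in its own library, not of its height. By it the strongest peak of the window lay in a region inside the non-coding gene LINC00824 (chr8:128554706-128555705, +819.8 kb) in 11 libraries and in a region inside PVT1 (chr8:127831335-127832166, +96.3 kb) in 4. These were at a median of the top 0.217% and the top 0.766% of all peaks in their lists. Regions at −149 kb, at −699.8 kb (both between genes) and inside ASAP1 followed. Of the 69 regions called everywhere, 15 outranked the MYC start in all 15 libraries.

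The first comparison asked whether Lgk974 changed how many regions of the neighbourhood were called. At 24 h the DMSO libraries called 224, 226, 200 and 165 members and the Lgk974 libraries 200, 212, 113 and 213. At 48 h the DMSO libraries called 199, 219, 171 and 185 and the Lgk974 libraries 230, 266 and 120. Treatments overlapped at both times, and the 2 lowest counts belonged to the 2 libraries with the shortest lists. The members' share of all regions called was 0.211% to 0.231% in 14 libraries and 0.164% in DMSO 24 h replicate 3, which had called the most regions.

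**Figure D3:**
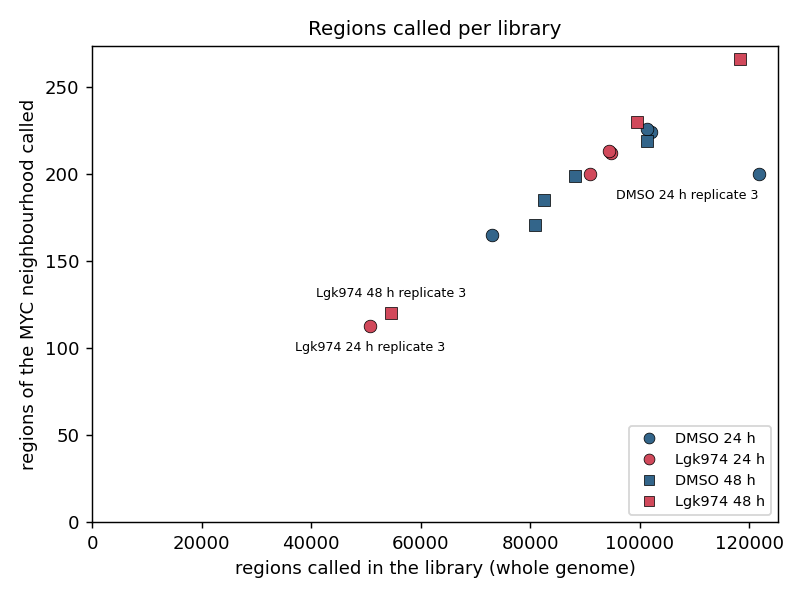
Number of members called in each library (vertical) against the number of regions the library called genome-wide (horizontal); circles are 24 h, squares 48 h, blue DMSO and red Lgk974. Counts of members follow list length, with DMSO 24 h replicate 3, at 200 members, below the line of the others.

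The second comparison asked which regions were called more or less often with Lgk974. Of the 426 members, 137 were called in 3 to 12 libraries and could be tested, with a two-sided exact permutation of treatment within time over 2450 assignments. At an unadjusted p under 0.05, 4 were called more often with Lgk974 (2.92%; 2.96% of all regions tested) and 5 less often (3.65%; 3.08% of all). The 9 together were 6.57% of the members tested, near the 6.03% of all regions. With Benjamini-Hochberg adjustment over all 60356 regions, 0 members passed, and so did 0 regions in the genome (0%); the smallest adjusted p of a member was 0.543. The test could not go below 0.000408 for a region, so a small number of true differences cannot pass this adjustment. Of the 137, 68 had a higher and 69 a lower calling rate with Lgk974, with a median difference of −0.0417, as for all regions.

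Regions called in every DMSO library and no Lgk974 library at 24 h numbered 2 of the 360 members called at that time (0.103% of all regions). One stood between genes at −132 kb (chr8:127602965-127603807) and one between MYC and PVT1 at +47.0 kb (chr8:127781765-127783028), 11496 bp before the annotated start of PVT1. Each was called by all 4 DMSO libraries and by 0 of the 4 with Lgk974 at 24 h, and by all 4 DMSO libraries but 2 of the 3 with Lgk974 at 48 h. The 24 h pattern is the one these regions were chosen for, and it enters the difference over both times. At 48 h the Lgk974 libraries were split (exact permutation p = 0.429 for each region). The difference in calling rate over both times was −0.667 for each (exact permutation p = 0.00612, adjusted p = 0.543). Leaving out any 1 library kept p between 0.00476 and 0.0286. Without the 3 outlying libraries the difference was −0.50 and the exact p 0.10. With equal lists, in which each library kept its 53610 peaks of highest −log10 q (the length of the shortest list), the region at +47.0 kb had calls from 6 of 8 libraries with DMSO and from 0 of 7 with Lgk974 (exact p = 0.00612), whereas the one at −132 kb was called in 1 DMSO library and 0 Lgk974 libraries.

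The opposite pattern at 24 h, a call in every Lgk974 library against 0 DMSO calls, was seen for no member (0.0375% of all regions had it). At 48 h, 1 member of 339 was called in all Lgk974 and no DMSO libraries (0.251% of all) and 1 in all DMSO and no Lgk974 libraries (0.412% of all). The former, at −760.3 kb in the non-coding gene LOC105375751, was called in 1 DMSO and 1 Lgk974 library at 24 h (difference over both times 0.50, exact p = 0.0469). Its exact p stayed under 0.05 only without DMSO 24 h replicate 1 (p = 0.0163) and reached 0.241 without Lgk974 24 h replicate 2; without the 3 outlying libraries it was 0.133. The latter, at −939 kb in the same gene, went the other way at 24 h, when 1 DMSO and 3 Lgk974 libraries called it (difference −0.25 over both times, −0.167 without the 3 outlying libraries).

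Among the regions called more often with Lgk974, one lay at the end of CASC19 (chr8:127196728-127197252, −538 kb), a non-coding RNA gene beside CCAT1. It was called in 0 of 8 DMSO libraries, in 3 of 4 Lgk974 libraries at 24 h and in 2 of 3 at 48 h (difference 0.708, exact p = 0.0102, adjusted p = 0.543). The Lgk974 libraries that did not call it were among the 3 outlying ones: without these 3 5 of 5 libraries with Lgk974 called it and 0 of 7 with DMSO (exact p = 0.00333, the smallest that design allows). With equal lists of the strongest peaks 1 Lgk974 library called it. CASC19 was the only 1 of 8 tested genes of the window whose ends differed in calling at an unadjusted p under 0.05 (4.31% of genes tested). Of the other regions called more often, 2 lay inside PVT1, at +97.8 kb and +184 kb. Each of the pair was called in 0 of 8 DMSO libraries, 3 of 4 Lgk974 libraries at 24 h and 1 of 3 at 48 h (difference 0.542, exact p = 0.0306, adjusted p = 0.666). With equal lists of the strongest peaks no library called either PVT1 region, and without Lgk974 48 h replicate 2 both reached an exact p of 0.143 with a difference of 0.375. Without the 3 outlying libraries 4 of 5 with Lgk974 called each (difference 0.75, exact p = 0.0167). With 1 library left out, both kept an exact p under 0.05 only without Lgk974 24 h replicate 3 (p = 0.0122), Lgk974 48 h replicate 1 or Lgk974 48 h replicate 3 (p = 0.0238 each).

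The 3 other regions called less often lay in CASC8 and in the desert after PVT1. The CASC8 region, at −329 kb (chr8:127406387-127406794), had calls from 7 of 8 libraries with DMSO and from 2 of 7 with Lgk974 (difference −0.625, exact p = 0.0306). With equal lists it was called only in DMSO 24 h replicates 3 and 4. The desert region at +1269.9 kb was called in 3 of 4 DMSO libraries at each time and in 0 of 7 Lgk974 libraries (difference −0.750, exact p = 0.0102), and kept p at or below 0.0286 with any 1 library left out, but with equal lists no library called it. The one at +1411 kb had calls from 5 of 8 libraries with DMSO and from 0 of 7 with Lgk974 (difference −0.625, exact p = 0.0306). Both the CASC8 and the +1411 kb region lost p under 0.05, reaching 0.0857 at most, when any Lgk974 library at 48 h was left out, or DMSO 48 h replicate 1 or 2. The same happened without DMSO 48 h replicate 3 or Lgk974 24 h replicate 1 or 3 for the CASC8 region, and without DMSO 48 h replicate 4 or DMSO 24 h replicate 1 or 2 for the other. Without the 3 outlying libraries the CASC8 region was called by 6 of 7 DMSO and 2 of 5 Lgk974 libraries (difference −0.542, exact p = 0.20). Each desert region was then called by 5 of 7 and 0 of 5 (difference −0.708, exact p = 0.08).

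CCAT2 is a non-coding RNA gene within CASC8 and lies over an enhancer bound by TCF factors in colorectal cells. The wider of its gene-end regions (chr8:127400632-127401526, −334 kb) was called in 8 of 8 DMSO libraries and in 2 of 4 and 2 of 3 Lgk974 libraries (difference −0.417, exact p = 0.0918, adjusted p = 0.772). It did not pass the test. When lists were trimmed to the same number of strongest peaks 7 of 8 libraries with DMSO called it and 0 of 7 with Lgk974 (unadjusted exact p = 0.00204). No member passed adjustment under that setting. Without the 3 outlying libraries the difference was −0.167. The narrower CCAT2 region (chr8:127401930-127402222) was called in 2 DMSO libraries and 1 Lgk974 library at 24 h and in none at 48 h (difference −0.125).

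**Figure D4:**
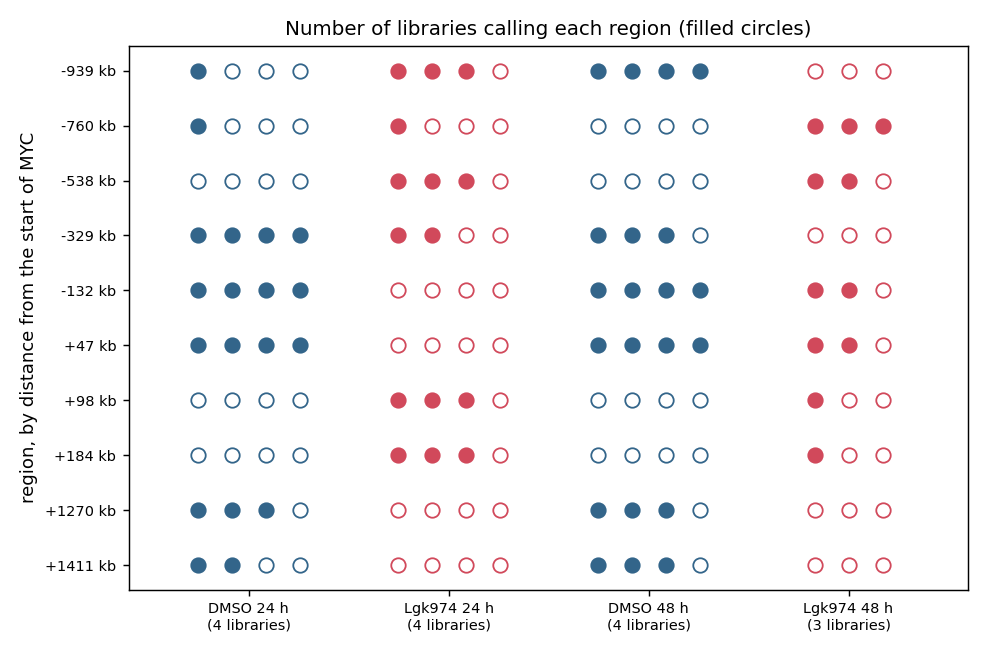
Each row is a region that was separated by treatment at 1 time or had an unadjusted p under 0.05, ordered by distance from the start of MYC in kb; each circle is 1 library of the group and filled circles count the libraries that called the region, not which replicates they were. The rows at −132 kb and +47 kb are filled for all 8 DMSO libraries and for 2 of 7 Lgk974 libraries.

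Calls do not show changes in regions that every library called, so the order of these regions was compared as well, a measure added after the data had been seen. Within each library the same 35389 regions called in all 15 were ordered by the authors' −log10 q and given percentiles, with 100 the strongest, so that lists of equal length were compared. The same exact permutation test was used, with Benjamini-Hochberg adjustment over all 35389, and the regions named from it were chosen after their values were seen. A percentile is a place relative to other regions and not a level, and −log10 q depends on read depth, which is unknown here, as well as on height. Of the 69 members, 5 fell in this order with Lgk974 at an adjusted p under 0.05 (7.25%; 2.04% of all regions) and 1 rose (1.45%; 3.24% of all), together 8.70% of the members and 5.29% of all regions. At an unadjusted p under 0.05 there were 19 (27.5% of the members; 18.7% of all), 10 higher and 9 lower. The median difference over the 69 was −1.72 percentile points, against −0.235 over all regions, and 2 of the 69 had treatments that did not overlap (1.85% of all).

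The 2 largest falls were in nearby regions inside CASC21, a non-coding RNA gene between CCAT1 and MYC. The region at −469 kb (chr8:127265383-127266635) stood at percentiles 82.2, 77.8, 44.1 and 79.3 with DMSO and 10.4, 20.7, 19.2 and 37.4 with Lgk974 at 24 h. At 48 h it stood at 68.0, 79.8, 86.1 and 85.7 with DMSO and 17.0, 8.54 and 19.6 with Lgk974. Every DMSO library was above every Lgk974 library, and the lowest DMSO value was that of replicate 3 at 24 h. The mean difference was −56.9 points (exact permutation p = 0.000408, the smallest possible, adjusted p = 0.0190), and adjusted p stayed between 0.0196 and 0.0459 when each library was left out. Ordered by the authors' fold over background instead, the difference was −49.7 (adjusted p = 0.0477).

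The CASC21 region at −488 kb (chr8:127246700-127247888) stood at percentiles 91.3, 92.3, 32.6 and 85.9 with DMSO and 19.6, 25.5, 42.8 and 40.9 with Lgk974 at 24 h. At 48 h it stood at 97.8, 96.3, 96.0 and 92.3 with DMSO, among the strongest regions of each library, and at 43.2, 22.9 and 15.6 with Lgk974. Only DMSO 24 h replicate 3 lay among the Lgk974 values. The mean difference was −55.9 points (exact permutation p = 0.00122, adjusted p = 0.0319), and by fold −40.5 (adjusted p = 0.0477). Adjusted p stayed under 0.05 without DMSO 24 h replicate 3 (0.0196), Lgk974 24 h replicate 3 (0.0425) or Lgk974 24 h replicate 4 (0.0474), and was 0.0514 to 0.0774 without any other single library, with differences from −59.8 to −52.9.

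Over both times, neighbours of these regions did not pass. A region between them, at −482 kb, had group means of 12.8 and 9.69 with DMSO and Lgk974 at 24 h and 6.12 and 4.44 at 48 h (difference −2.37, exact permutation p = 0.612). The next region towards MYC, at −441 kb where CASC21 and CASC8 overlap, had a difference of −6.37 over both times (exact permutation p = 0.598), made of 9.45 at 24 h and −22.2 at 48 h. At 48 h its treatments did not overlap (DMSO 80.4 to 92.9, Lgk974 55.1 to 71.3, unadjusted exact permutation p = 0.0286, the smallest possible at that time). Other members reached this value at 48 h as well, among them the regions at −469 kb and −488 kb. The share of all regions that did so was not counted.

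At CCAT1, a non-coding RNA gene known for its super-enhancer in colorectal cancer, the region over one end of the gene (chr8:127218693-127219688, −516 kb) fell to the bottom of the order. With DMSO it stood at percentiles 32.4, 19.1, 63.1 and 51.9 at 24 h and 39.7, 34.4, 62.1 and 42.6 at 48 h. With Lgk974 it stood at 5.50, 1.49, 3.51 and 2.27 at 24 h and 4.05, 4.12 and 22.6 at 48 h. Of the Lgk974 libraries 1 of 7, replicate 3 at 48 h, overlapped the DMSO values. The mean difference was −36.4 points (exact permutation p = 0.000408, adjusted p = 0.0190), and adjusted p was at most 0.0495 when any library was left out. By fold the difference was −13.0 and the adjusted p 0.116, so the fall passed by −log10 q and did not by fold. The other 3 regions of the CCAT1 group differed by 14.7, −9.98 and −8.49 points over both times, and none of them passed. The last of these, at −510.1 kb, differed by 8.0 at 24 h and −25.0 at 48 h. At 48 h DMSO libraries stood at 40.2 to 46.2 and Lgk974 libraries at 15.4 to 22 (unadjusted exact permutation p = 0.0286). The difference between times had an unadjusted exact permutation p of 0.00980 (adjusted p = 1.000).

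MYC itself showed lower places at both of its regions. The 3′ end region stood at percentiles 55.5, 62.8, 46.6 and 67.2 with DMSO and 27.1, 28.6, 39.8 and 35.2 with Lgk974 at 24 h. At 48 h it stood at 68.1, 62.7, 60.7 and 62.3 with DMSO and 19.5, 25.6 and 60.3 with Lgk974. Groups were apart at 24 h, and replicate 3 of Lgk974 at 48 h reached the DMSO range. The fall of 26.8 points (difference −26.8, exact permutation p = 0.000408, adjusted p = 0.0190) was not seen when regions were ordered by fold (difference −0.696, adjusted p = 0.998), and its adjusted p was 0.0516 when gene-end regions were ordered among themselves. Peaks covered 1769, 1663, 665 and 1888 bp of this region with DMSO and 479, 719, 419 and 567 bp with Lgk974 at 24 h, and 1106, 1740, 1581 and 1753 bp against 457, 398 and 424 bp at 48 h. The covered length was thus shorter with Lgk974, apart from an overlap of DMSO replicate 3 with Lgk974 replicate 2 at 24 h, and its part in the fall was not tested. The MYC start region stood at 23.6, 30.7, 26.2 and 67.1 with DMSO and 15.6, 16.4, 43.6 and 17.4 with Lgk974 at 24 h, and at 46.0, 35.8, 60.3 and 48.1 against 5.39, 16.1 and 22.1 at 48 h. Groups overlapped at 24 h and were apart at 48 h. Its difference of −23.3 points did not pass (exact permutation p = 0.0122, adjusted p = 0.117) except without Lgk974 24 h replicate 3 (difference −26.7, adjusted p = 0.0425). Gene-end regions genome-wide had a median difference of −0.808 and other regions of 0.278.

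At PVT1, none of the 10 ordered regions passed in either direction, and 4 were higher with Lgk974 at an unadjusted p under 0.05 (10.0% of all regions were) and 0 lower (8.66% of all). These 4 lay at +124, +141, +299.8 and +341 kb, with differences of 8.93 to 13.9 points and adjusted p from 0.121 to 0.240. The strongest PVT1 region, at +96.3 kb, differed by 1.26 points (exact permutation p = 0.424).

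The 1 member that rose lay at +923 kb in the desert after PVT1 (chr8:128657454-128658448), where no gene is annotated and LINC00824 is the nearest. With DMSO it stood at percentiles 5.12, 3.41, 9.50 and 9.63 at 24 h and 6.72, 14.5, 1.76 and 5.37 at 48 h. With Lgk974 it stood at 38.3, 39.3, 37.7 and 34.3 at 24 h and 43.4, 26.7 and 49.0 at 48 h. Treatments did not overlap. The difference was 31.6 points (exact permutation p = 0.000408, adjusted p = 0.0190; by fold 36.6, adjusted p = 0.0477), and adjusted p was at most 0.0459 with any library left out. The other 2 regions of its group, 2 of the 3 that lie within 13.3 kb, differed by −1.72 and 3.62 points and did not pass.

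The fifth fall was inside ASAP1 at +2397 kb (chr8:130131479-130132686). Group means were 53.9 with DMSO and 38.6 with Lgk974 at 24 h, and 53.9 and 23.4 at 48 h (SD 3.43, 9.08, 7.88 and 20.9; n = 4, 4, 4 and 3; difference −22.9, exact permutation p = 0.00122, adjusted p = 0.0319). The groups overlapped, and by fold the adjusted p was 0.164. Its adjusted p stayed under 0.05 without DMSO 24 h replicate 3 or 4, Lgk974 24 h replicate 1, DMSO 48 h replicate 2 or Lgk974 48 h replicate 1 (0.0359 to 0.0492) and was 0.0514 to 0.0774 without any other single library.

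Without the 3 outlying libraries the 6 differences were −62.0 at −469 kb, −61.9 at −488 kb, −36.0 at CCAT1, −36.2 at the MYC 3′ end, −18.7 in ASAP1 and 29.6 at +923 kb, and that of the MYC start was −30.4. With the 12 libraries left, no region in the genome had an adjusted p below 0.0514, the value of 5 of the 6 and of the MYC start (ASAP1 had 0.0902), so no call could be made there.

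**Figure D5:**
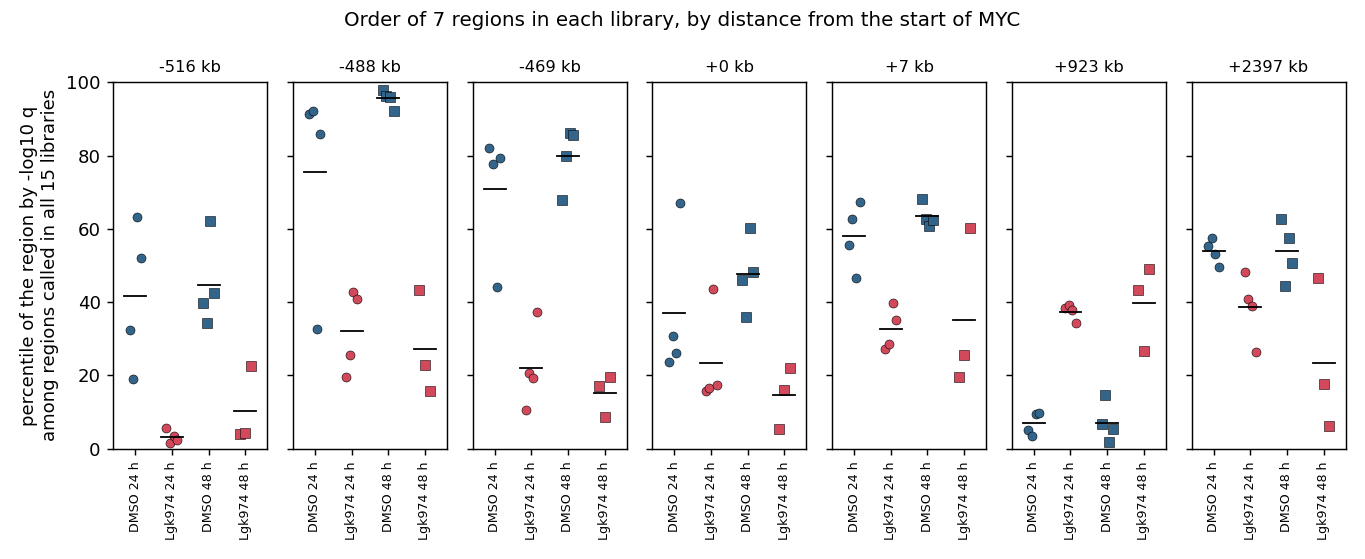
Percentile of 7 regions by −log10 q among the 35389 regions called in all 15 libraries (vertical, 100 the strongest), one panel per region by distance from the start of MYC in kb; points are libraries (circles 24 h, squares 48 h, blue DMSO, red Lgk974) and black lines group means. Lgk974 points lie below DMSO points at −516, −488 and −469 kb apart from 1 DMSO library at −488 kb and 1 Lgk974 library at −516 kb, and above them at +923 kb.

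Time was tested as treatment had been, and the floor on p again limited what could pass adjustment. Called more often at 48 h than at 24 h were 2 of the 137 members at an unadjusted p under 0.05 (1.25% of all regions), and 0 were called less often (0.504% of all). Both lay in LINC00824. The one at +693 kb was called in 2 of 8 libraries at 24 h and 7 of 7 at 48 h (exact permutation p = 0.00612), and the one at +751 kb in 1 of 8 and 6 of 7 (exact permutation p = 0.0135). The treatment difference itself differed between times for 7 of 137 members at an unadjusted p under 0.05 (5.11%; 1.26% of all regions), of which 3 lay in ASAP1 and 1 in CYRIB. In 6 of the 7, Lgk974 libraries called the region less often at 24 h and more often at 48 h than DMSO libraries; the seventh was the region at −939 kb, which did the opposite. None passed adjustment, for time or for the difference between times, and neither did any member in the order, where an unadjusted p under 0.05 was found for time in 5 of the 69 (7.53% of all regions) and for the difference between times in 4 (3.91% of all).

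Other genes of the MYC network, from a list that holds MYC itself, were mostly marked at 1 or both ends. Of 14 genes, 12 were marked at an end (to 1 kb) in all 15 libraries, against 27.3% of all genes in the table. All 14 are protein-coding, while the table also holds non-coding genes and pseudogenes, so these shares do not compare like genes. Among the 12 were MAX, the partner of MYC, the MAX-binding antagonists MXD1, MXI1 and MNT, and MYCL. MYCN, the neural relative of MYC, was marked at an end in 12 libraries, and MGA, a MAX-binding repressor, in 1. Peaks farther than 1 kb from both annotated ends were not counted, so these values do not describe the inside of a gene. MYCN was the single one that could be tested, and it did not pass with Lgk974 (exact permutation p = 0.571).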

How the data were processed

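The 15 deposited files are peak lists in narrowPeak format, 1 per library, so the authors called peaks per library and not on pooled samples. The submitters' processing notes name hg38, MACS2, Bowtie2, Picard, Trimmomatic and SAMtools, with no order or settings. For versions, settings, a shift of reads for the transposase and any cleaning of the lists: not given in the sources used here. Such choices decide which weak peaks were listed and how wide they are.

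Each peak has a deposited score (10 times the −log10 q, without decimals), a deposited fold over background (a ratio), the authors' −log10 p and −log10 q, and a deposited summit position. They were used only to order or filter peaks within a library. The files have no headers, and the depth of each library is unknown. Of 1413185 peaks, 1138 outside chromosomes 1 to 22 and X were not used. A single line of DMSO 48 h replicate 4 with a damaged name was taken as chromosome 1.

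Gene starts and ends are those of RefSeq on GRCh38.p14 (hg38), given without strand. Groups and replicate numbers came from the sample titles. The growth protocol also describes KATO III cells, but all 15 libraries are labelled HPAF-II.

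The calling difference was the mean over both times of the calling rate with Lgk974 minus that with DMSO, tested by exact permutation within time over regions called in 3 to 12 libraries (time within treatment for the time effect), with Benjamini-Hochberg adjustment at 0.05. The smallest p was 0.000408 over both times and 0.0286 at either time. Named by rule were regions separated by treatment at 1 time, those with unadjusted p under 0.05, those within 1 kb of an end of listed genes, the 5 widest and the 5 strongest of those called in all 15 libraries, and those at the window edges. The order test, and the regions named from it, were added after the data were seen. The members and lists were chosen with earlier results of these data known. Alternatives were other thresholds, overlaps, equal lists, summit windows, omitted libraries and a replicate block. The software was Python 3.11.15, pandas 2.3.3, numpy 2.4.6 and scipy 1.17.1, with figures from matplotlib 3.10.9, and the tests were tried on simulated data. No sequence is printed, and no test was made of the number of members called per library. Some listed marker genes are not reported here.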

Additional observations from a re-analysis of the deposited data

Results flagged for a closer look

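In groups of 4 libraries, 45 sets of values were screened for a library whose gap to the nearest other library, as a share of the group's range, was above Dixon's critical value, and 9 met this, where chance alone marks about 1 in 20. Lgk974 24 h replicate 3, the shortest list, called 113 members against 200 to 213 in the other libraries of its group, and 15 members from CASC21 to 50 kb before MYC against 30 to 32. At the MYC start it stood at percentile 43.6 against 15.6 to 17.4.

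DMSO 24 h replicate 3, the longest list, gave members 0.164% of its called regions against 0.219% to 0.226%, and called 26 regions in PVT1 against 17 to 18. At the CASC21 regions it stood at percentile 32.6 against 85.9 to 92.3 (−488 kb) and 44.1 against 77.8 to 82.2 (−469 kb), in each case lower and nearer to the Lgk974 libraries. DMSO 24 h replicate 4 stood at percentile 67.1 at the MYC start against 23.6 to 30.7. DMSO 48 h replicate 2 called 7 regions in the segment of MYC and CASC11 against 5 in each of the others. Their part in the differences between treatments was not tested beyond leaving each library out.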

How the results depend on the processing

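No called result changed direction. The region at −939 kb, which did not pass over both times (difference −0.25), changed sign with equal lists, where only Lgk974 24 h replicate 2 called it. Members called more often with Lgk974 (4) numbered 2 at −log10 q of at least 5, and 1 to 5 with 1 library left out. Members called less often (5) numbered 2 at −log10 q of at least 5, 0 without the 3 outlying libraries (where fewer assignments remain), and 3 to 5 with 1 library left out. None passed adjustment under any setting tried. Members called in all Lgk974 and no DMSO libraries at 24 h (0) numbered 2 with equal lists, 4 without the 3 outlying libraries and 0 to 4 with 1 left out; the opposite set (2) numbered 0 with equal lists, 1 at −log10 q of at least 5, 0 when peaks had to cover 50% of a region, 5 without the 3 outlying libraries and 2 to 5 with 1 left out. At 48 h the first set (1) numbered 0 with equal lists, 0 at −log10 q of at least 5, 14 without the 3 outlying libraries and 1 to 14 with 1 left out, and the second (1) numbered 3, 0, 1 and 1 to 6. Members called more often at 48 h (2) numbered 0 with equal lists and 2 to 3 with 1 left out. Members called more often at 24 h (0) numbered 3 with equal lists, 1 at −log10 q of at least 5, 1 with 50% cover and 0 to 1 with 1 left out. The difference in members called per library moved from −32.2 to 4.58 around −19.2 at 24 h and from −18.5 to 54.5 around 11.8 at 48 h with 1 left out, and was 6.25 and −2.08 with equal lists, so neither sign held; these moves were smaller than the spread between libraries.

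Under alternatives added after the data were seen, members that fell in the order (5) numbered 2 by fold, 4 within annotation classes, 4 with equal lists, 5 with summit windows, 0 without the 3 outlying libraries and 3 to 6 with 1 left out. The 1 that rose numbered 0 with equal lists, where it was no longer in all lists, 0 without the 3 outlying libraries and 1 to 2 with 1 left out. The cause of these changes was not tested. Same-numbered libraries correlated at 0.102, 0.138, 0.142 and 0.115 at 24 h and 0.146, −0.0321 and 0.0840 at 48 h, so the numbers were not taken to pair the samples, nor did every library correlate best with its own number. With the replicate block (7 pairs, 128 assignments, smallest p 0.0156) 0 members were called more often, 0 less often, 0 rose and 0 fell in the order. In the order the smallest adjusted p of any region in the genome was 0.169, so with this floor no call could be made there.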
